A study of Mus musculus with 6 samples.

Results

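Aminoacyl-tRNA synthetases join each amino acid to its transfer RNA and so supply every ribosome with its substrates. The 36 synthetase genes described here were taken from a list of gene symbols, 20 for enzymes that work in the cytosol and 16 for enzymes that work inside mitochondria. The rule used no measured value, but the members were chosen with earlier results of these data known. All 36 were among the 16840 genes of the deposited count table, and all 36 were among the 12340 genes whose counts were high enough to be tested. RNA had been sequenced from wild-type mouse alveolar macrophages, the phagocytes that live in the air sacs of the lung, at day 2. There were 6 libraries in 3 groups of 2: cells that had received no GM-CSF, cells stimulated with GM-CSF (granulocyte-macrophage colony-stimulating factor, the growth factor that maintains these macrophages), and cells stimulated with GM-CSF that were also given a treatment that the labels call DON. The labels spell out neither DON nor its dose, and they enter AM as a cell line without stating where the cells came from. Nothing in them ties the 2 libraries of a group to separate cultures or animals, so p-values here measure only the spread between these libraries, which may be technical.

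The cytosolic enzymes serve the ribosomes that translate nuclear messages, and the mitochondrial enzymes, encoded in the nucleus and imported, serve the ribosomes that translate the few messages of mitochondrial DNA. Many cytosolic synthetase genes are known targets of ATF4, a transcription factor made when uncharged transfer RNA or another stress leads to phosphorylation of the initiation factor eIF2 (the amino acid response). ATF4 pairs with C/EBP proteins on a composite DNA element, and mitochondrial synthetase genes are not usually counted among its targets. Synthetases fall into 2 unrelated structural classes, and several cytosolic ones sit together in a multi-synthetase complex held by the scaffold proteins Aimp1, Aimp2 and Eef1e1. Gars and Kars each encode both the cytosolic and the mitochondrial form, and Eprs encodes a fused enzyme for glutamate and proline.

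Promoter letters are shown first because the element that ATF4 uses is a property of the genes that the counts did not set. RefSeq promoter windows (GRCm38.p6, 250 bases before to 50 bases after a start of transcription) were found for 13 of the 20 cytosolic and 14 of the 16 mitochondrial genes. The core letters of the element, TGATGNAA, were searched on both strands. They occurred in the windows of 5 of the 13 cytosolic genes (38.5%), namely Aars, Gars, Iars, Tars and Yars, and in 0 of the 14 mitochondrial ones. A match occurred in 3.97% of all 32851 windows, and in those of 2.89% of the 8536 tested genes with a window under the same symbol. Capitals mark the match in the stretches below, which run 5′ to 3′ along the gene.
Aars, before the start: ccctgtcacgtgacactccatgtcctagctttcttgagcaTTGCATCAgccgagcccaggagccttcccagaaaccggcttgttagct
Aars, across the start: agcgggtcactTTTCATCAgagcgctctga
Gars, before the start: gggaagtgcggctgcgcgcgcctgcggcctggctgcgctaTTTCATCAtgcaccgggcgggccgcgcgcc
Iars, across the start: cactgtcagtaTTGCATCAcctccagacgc
Tars, before the start: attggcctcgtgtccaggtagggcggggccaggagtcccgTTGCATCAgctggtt
Yars, across the start: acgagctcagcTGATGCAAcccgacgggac
The upstream Aars stretch is chr8:111033690-111033777 on the plus strand, with its match 112 to 105 bases before the start, and the second Aars stretch is chr8:111033840-111033869, with its match at bases 10 to 17 of the transcript. The Gars stretch is chr6:55037931-55038000 on the plus strand, with the match 30 to 23 bases before the start. The Iars stretch is chr13:49682126-49682155 on the plus strand, with the match at bases 8 to 15 of the transcript. The Tars stretch is chr15:11399659-11399713 on the minus strand, with the match 15 to 8 bases before the start. The Yars stretch is chr4:129189895-129189924 on the plus strand, with the match at bases 4 to 11 of the transcript.

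With the stricter letters TGATGCAA, which lie within the first motif, 4 of the 13 cytosolic genes had a match (Aars, Iars, Tars and Yars). Of the 14 mitochondrial genes 0 did, and 0.808% of the tested genes with a window did. CACGTG, the E-box that Myc and related factors bind, reads the same on both strands. It occurred in windows of 4 of the 13 cytosolic genes (Aars, Farsb, Iars and Tars) and 1 of the 14 mitochondrial genes (Ears2). The share among tested genes with a window was 12.1%. A match describes letters and is neither a measured binding site nor a cause of any change below. A window without one, such as that of Sars, says nothing of sequence outside it.

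Library totals lay between 28321986 and 35196387 counts. CPM below are the usual depth-normalised counts on library sizes corrected with edgeR's TMM factors. Of the 15 symbols listed as alveolar macrophage markers 13 were found, Siglecf and Chil3 being there under their older names Siglec5 and Chi3l3. Without GM-CSF their summed level was 46757 to 47488 CPM; stimulated cells had 30311 to 30369 and DON-treated cells 35073 to 36673. Most of that sum was Lyz2, at a mean of 36595, 17076 and 18914 CPM in that order. The markers did not move together. With GM-CSF 4 of the 13 rose and 7 fell (edgeR's test, adjusted p below 0.05), where 27.5% of all genes tested rose and 29.3% fell. Car4, one of those that rose, was at 0.22 and 0.24 CPM without GM-CSF and at a mean of 656 with it. Markers of other cells moved with the groups as well. The 9 lung epithelium markers summed to 17.1 to 20.2, 96.9 to 102.5 and 26.9 to 27.3 CPM in the same order, mostly Cdh1. Sftpc and Sftpb were at or near 0. Of the 6 epithelium markers tested with GM-CSF only Cdh1 rose, from a mean of 13.8 to 98.0 CPM, while 3 fell and 2 did not pass the test. The 6 dendritic cell markers summed to 8.65 to 8.92, 27.7 to 28.1 and 25.4 to 25.5 CPM. The 3 granulocyte markers found, of 6 listed, summed to 90.2 to 92.99, 6.85 to 7.54 and 11.8 to 13.7 CPM. Lymphocyte markers (2 of 6 found) and stroma and endothelium markers (7 of 7) stayed below 2 CPM in sum. The part of these cells in the synthetase values was not tested, and in bulk RNA fewer cells of a type and less RNA per cell cannot be told apart.

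Per length of transcript, most cytosolic synthetase messages were more abundant than most mitochondrial ones in every group. In the authors' FPKM values (fragments scaled to transcript length and depth) without GM-CSF, glycyl-tRNA synthetase Gars led with 104.8 ± 3.52 (SD, n = 2 here and for every mean ± SD below), followed by seryl-tRNA synthetase Sars with 99.2 ± 11.6, so that these neighbours did not differ beyond their spread. Asparaginyl-tRNA synthetase Nars was next at 62.0 ± 2.70, then Rars at 53.1 ± 2.02 and Farsb at 52.4 ± 2.53, a pair within their spread. The cytosolic gene with the lowest level was Lars, at 12.5 ± 0.06 FPKM. Among mitochondrial genes Lars2 was highest at 18.7 ± 8.86 and Iars2 next at 15.8 ± 1.19, again within their spread, and Wars2 (1.93 ± 0.06) and Aars2 (1.90 ± 0.11) were lowest. The means of Lars2 and Iars2 lay above that of Lars. Lars2 did so in replicate 1 only, at 24.9 and 12.4 FPKM against 12.4 and 12.5 for Lars. With GM-CSF, Sars stood at 138 ± 3.35 and Gars at 135 ± 0.89. In DON-treated cells, Sars rose clear of the rest to 230 ± 10.1 while Gars stood at 135 ± 3.20. The transcript length implied by counts and FPKM varied by over 5% between libraries for 9 of the 36 genes, among them Qars, Vars and Yars, so their FPKM values carry that extra uncertainty.

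**Figure D1:**
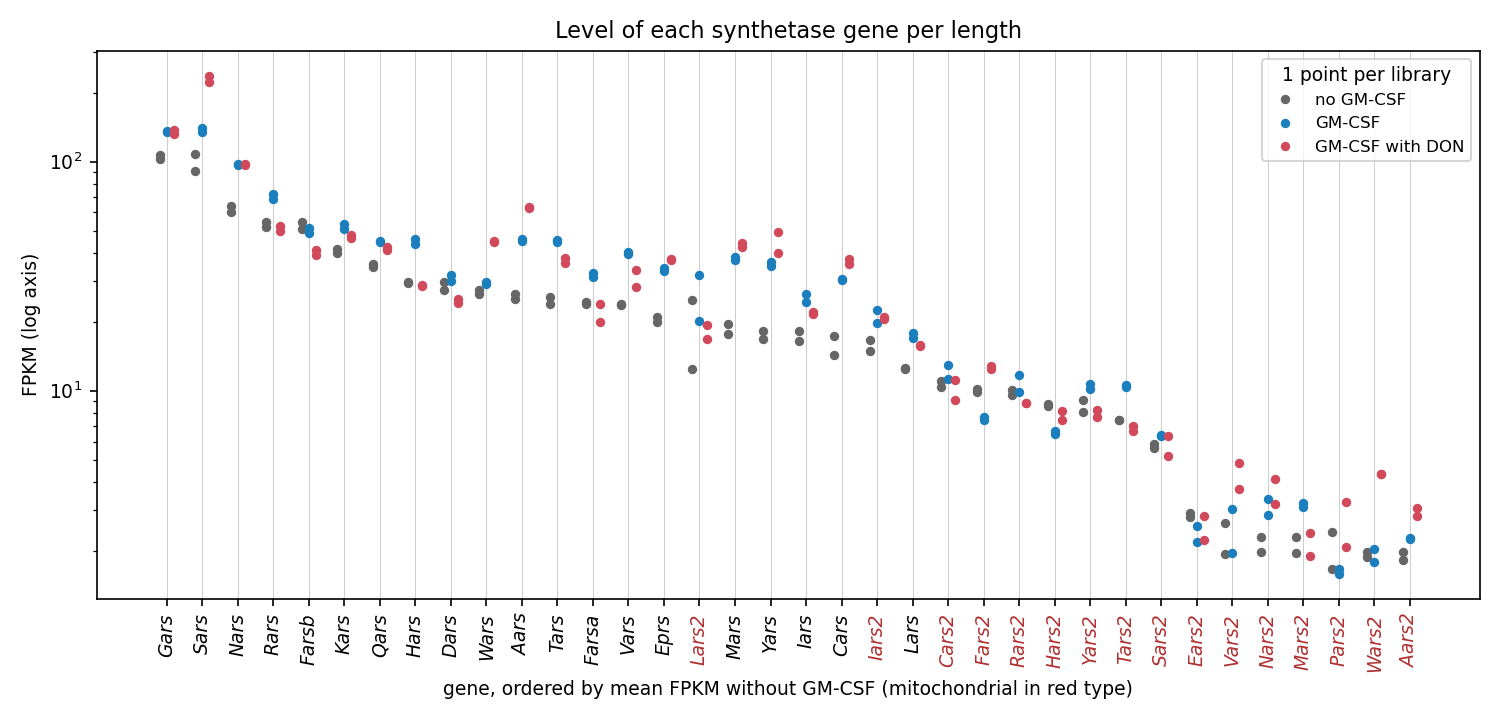
Level of each synthetase gene per transcript length (authors' FPKM, log axis), with 1 point per library and colours for the 3 groups. Most cytosolic genes (black names) lie left of most mitochondrial genes (red names), from Gars near 105 without GM-CSF down to Aars2 at 1.90, with Lars2 and Iars2 among the cytosolic genes, and Sars reaches the highest level of all in DON-treated cells.

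Most cytosolic synthetase messages rose with GM-CSF. Against cells without GM-CSF, 17 of the 20 cytosolic genes rose, 0 fell and 3 (Dars, Farsb and Wars) did not pass the test, with a median log2 fold change of 0.53 over the 20. Over all 12340 genes tested, 27.5% rose and 29.3% fell in this comparison (56.8% called in all), with a median of -0.02. A gene was called at an adjusted p below 0.05 (edgeR's quasi-likelihood test, Benjamini-Hochberg correction across the 12340). The sizes ran from 0.15 ± 0.05 (log2, ± SE here and for every fold change below) for Qars to 1.07 ± 0.07 for Yars, the only one above 2-fold. Qars lost its call when no GM-CSF replicate 2 (adjusted p 0.088), GM-CSF replicate 1 (0.0531) or GM-CSF replicate 2 (0.0898) was left out.

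Tyrosyl-tRNA synthetase Yars was at 36 and 38 CPM without GM-CSF and at 75.2 and 80.5 with it, and methionyl-tRNA synthetase Mars at 37.8 and 37.6, then 73.4 and 74.3. For Mars that was a log2 fold change of 0.97 ± 0.05 (adjusted p 1.08e-07 by edgeR's quasi-likelihood test, the smallest among the 36). Alanyl-tRNA synthetase Aars went from 132 and 136 CPM to 231 and 236. For all of them both GM-CSF libraries lay above both libraries without it. The uncalled Dars and Wars were apart in the same way, and the share of all genes so separated was not counted. Genes named here were also picked by small adjusted p. Separation of the libraries is therefore a description, here and below, and adds nothing to the test. Threonyl-tRNA synthetase Tars stood at 58.3 and 63.1 CPM, then at 108 and 110, valyl-tRNA synthetase Vars at 78.4 and 74.7, then at 135 and 127, and the fused enzyme Eprs at 97.7 and 93.3, then at 158 and 155. Their log2 fold changes were 0.85 ± 0.05, 0.78 ± 0.05 and 0.71 ± 0.05. The 3 uncalled genes lay close to no difference, at 0.11 ± 0.06 for Dars, -0.07 ± 0.06 for Farsb and 0.11 ± 0.05 for Wars, and only the Farsb values overlapped between the groups.

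The mitochondrial enzymes moved less as a set. Of the 16 genes, 5 rose with GM-CSF (Iars2, Mars2, Nars2, Tars2 and Yars2), 2 fell (Fars2 and Hars2) and 9 did not pass, with a median log2 fold change of 0.16. The shares over all genes tested were 27.5% higher and 29.3% lower (56.8% called in all), with a median of -0.02. The 5 of 16 that rose thus lay near the share of all genes. Threonyl Tars2 was at 17.2 and 17.5 CPM without GM-CSF and at 24.5 and 23.8 with it, asparaginyl Nars2 at 5.72 and 6.03, then 8.63 and 8.16, and isoleucyl Iars2 at 75.7 and 73.3, then 91.3 and 97.1. All 3 were higher in both GM-CSF libraries than in either library without it. Mars2 stood at 6.21 and 5.26 CPM, then 8.66 and 8.29, and Yars2 at 10.8 and 11.9, then 14.8 and 13.7. Phenylalanyl Fars2 went the other way, from 19.6 and 19.0 CPM to 14.4 and 14.8, a log2 fold change of -0.40 ± 0.07 (adjusted p 0.000706 by edgeR's quasi-likelihood test). Histidyl Hars2 went from 16.9 and 16.9 to 13.5 and 14.5 CPM (-0.27 ± 0.08), and it lost its call without GM-CSF replicate 1 (adjusted p 0.0905). Yars2 lost its call when no GM-CSF replicate 1 (adjusted p 0.0819) or GM-CSF replicate 1 (0.0949) was left out. With DESeq2 neither Hars2 (-0.26, adjusted p 0.128) nor Yars2 (0.34, adjusted p 0.0759) was called. Scaled by total counts alone, which moved the median of all genes up by 0.12, the mitochondrial split was 8 higher and 1 lower. Hars2 was not called under that scaling (-0.15, adjusted p 0.119 by edgeR's quasi-likelihood test).

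The uncalled mitochondrial genes were Aars2, Cars2, Ears2, Lars2, Pars2, Rars2, Sars2, Vars2 and Wars2, with log2 fold changes from -0.17 ± 0.16 (Pars2) to 0.48 ± 0.28 (Lars2). Leucyl Lars2 had the widest spread between replicates of the 36 genes. Its values were 91.9 and 45.9 CPM without GM-CSF, 118 and 74.1 in stimulated cells, and 62.1 and 71.9 in DON-treated cells. Without no GM-CSF replicate 1 its rise passed the test (1.07, adjusted p 0.000391), so that a single library set its call. With DON against GM-CSF it passed as lower only when a library without GM-CSF was left out of the shared fit (-0.52, adjusted p 0.00781 and 0.00621) or when only the 4 libraries compared were fitted (-0.52, adjusted p 0.00782), and not with all 6 (0.136). The cause of the spread was not tested.

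**Figure D2:**
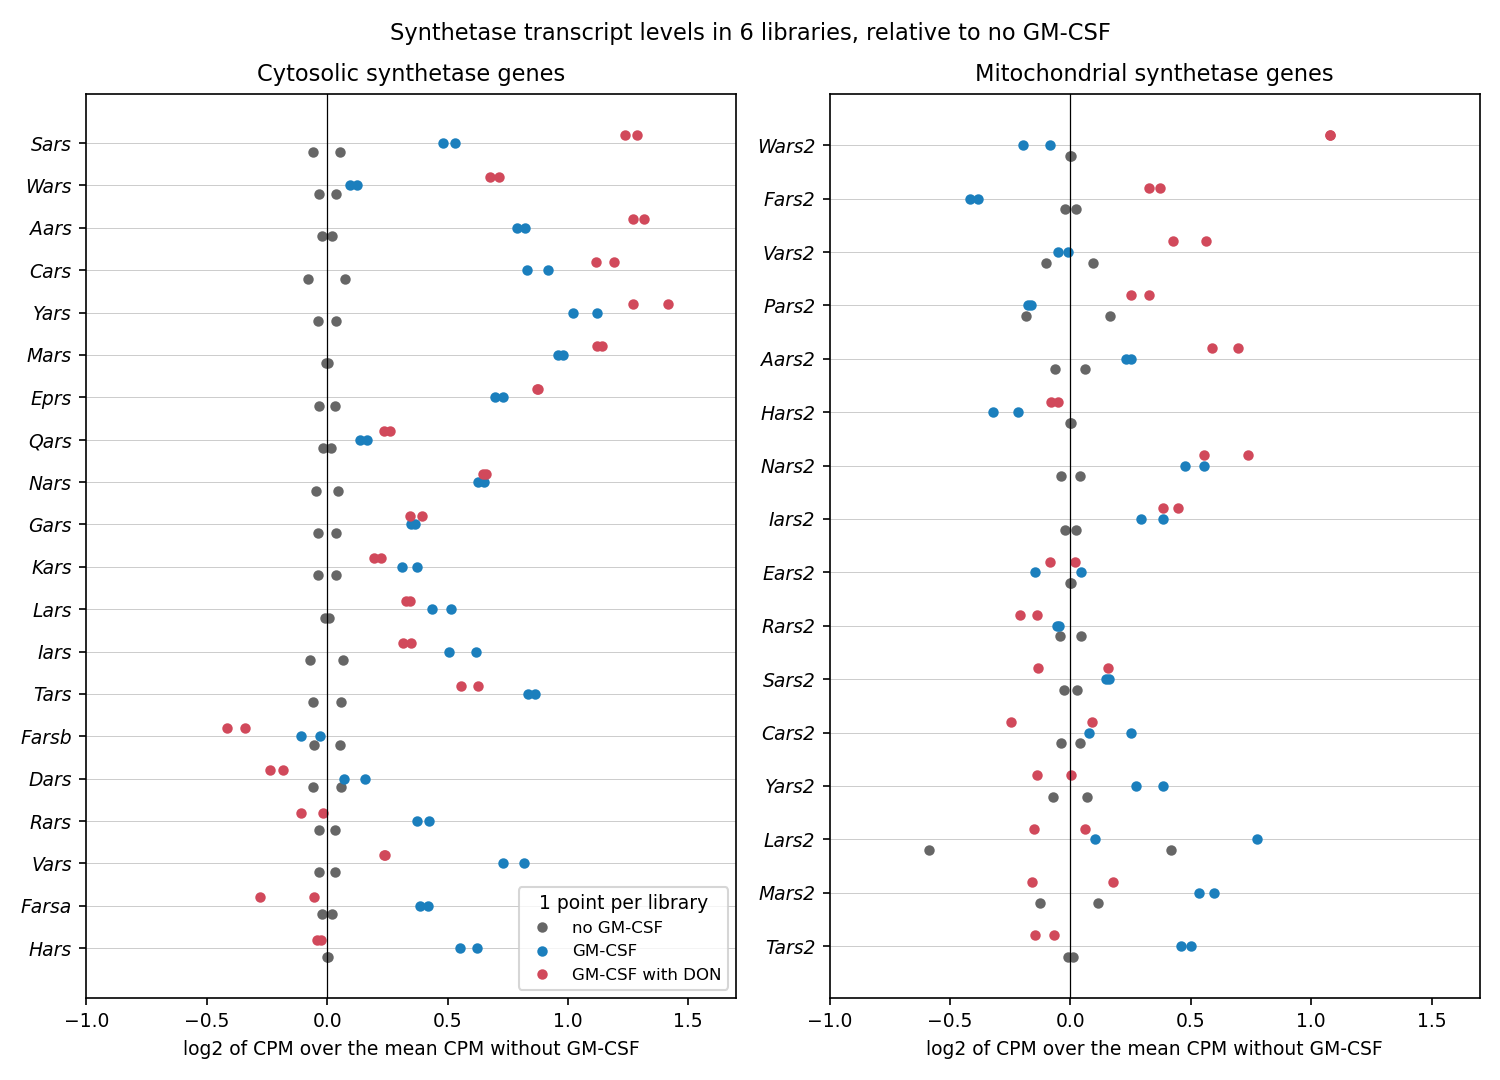
Level of each gene in each library as log2 of CPM over the mean CPM without GM-CSF, cytosolic genes on the left and mitochondrial genes on the right, with 1 point per library. Genes run from the largest rise to the largest fall with DON against GM-CSF: at the top left the DON points of Sars, Wars and Aars lie well right of their GM-CSF points, at the bottom left Hars and Farsa return to near 0, and among mitochondrial genes Wars2 alone reaches past 1.

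DON split the cytosolic set. Against GM-CSF alone, 7 of the 20 cytosolic genes rose (Aars, Cars, Eprs, Mars, Sars, Wars and Yars), 10 fell (Dars, Farsa, Farsb, Hars, Iars, Kars, Lars, Rars, Tars and Vars) and 3 did not pass (Gars, Nars and Qars). The median of the 20 was -0.06. Among all genes tested 28.8% rose and 28.8% fell (57.6% in all), with a median of 0.01. This comparison and the one above share the GM-CSF libraries, so a high GM-CSF value in a gene raises one difference and lowers the other, and the values are given side by side only.

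Sars rose most among the cytosolic genes. It was at 198 and 205 CPM with GM-CSF and at 346 and 334 with DON added, 1.69-fold higher, with a log2 fold change of 0.76 ± 0.05 (adjusted p 1.03e-06 by edgeR's quasi-likelihood test), and it had been at 136 and 147 without GM-CSF. Tryptophanyl-tRNA synthetase Wars, also known as an interferon-induced gene, was at 75.5 and 74.0 CPM with GM-CSF and at 114 and 111 with DON (0.59 ± 0.05), where it had been at 67.6 and 71.0 without GM-CSF. Aars went from 231 and 236 CPM to 322 and 333 (0.49 ± 0.04). In none of the 3 did the DON libraries overlap the GM-CSF libraries. Cysteinyl-tRNA synthetase Cars stood at 59.2 and 63.0 CPM with GM-CSF and 76.2 and 72.3 with DON, and at 31.6 and 35.1 without GM-CSF. Yars stood at 98.7 and 89.1 CPM with DON (0.27 ± 0.06), Mars at 83.2 and 82.0 (0.16 ± 0.05) and Eprs at 175 and 175 (0.16 ± 0.04). These last rises were small. With DESeq2 on all 6 libraries Mars was not called (0.15, adjusted p 0.0978). Mars lost its call without either GM-CSF library (adjusted p 0.0809 and 0.051) or without DON replicate 1 (0.0594), Eprs without GM-CSF replicate 2 (0.0776) and Yars without GM-CSF replicate 1 (0.0537).

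The falls were led by histidyl-tRNA synthetase Hars, at 78.4 and 82.5 CPM with GM-CSF and 52.0 and 52.6 with DON, which is where it had been without GM-CSF (53.6 and 53.4). Its log2 fold change was -0.62 ± 0.05 (adjusted p 4.36e-06 by edgeR's quasi-likelihood test). Farsa, the catalytic subunit of phenylalanyl-tRNA synthetase, fell by 0.57 ± 0.07 on the log2 scale, and its partner subunit Farsb by 0.31 ± 0.06. Vars fell from 135 and 127 to 90.04 and 90.5 CPM, and arginyl-tRNA synthetase Rars from 132 and 137 to 101 and 94.5, where it had been at 104 and 99.5 without GM-CSF. Both stood apart from GM-CSF alone in every library. Aspartyl-tRNA synthetase Dars fell from 61.4 and 65.3 to 49.7 and 51.5 CPM and Tars from 108 and 110 to 93.8 and 89.1. The falls of Iars (-0.23 ± 0.06), Lars (-0.14 ± 0.05) and Kars (-0.13 ± 0.05) were less stable. With all 6 libraries, Lars and Kars lost their calls with DESeq2 (adjusted p 0.116 and 0.078). In edgeR's test they lost them without the low-count filter (0.066 and 0.0645) or with a replicate block (0.057 and 0.0571). Lars also lost its call with limma on FPKM (0.073). Iars lost its call without GM-CSF replicate 1 (adjusted p 0.0768) or DON replicate 1 (0.0502). Lars lost it without GM-CSF replicate 2 (0.212), DON replicate 1 (0.0919) or DON replicate 2 (0.144). Kars lost it without any 1 of the 4 libraries compared (0.0585 to 0.202). The calls of Aars, Cars, Sars and Wars as higher, and of Dars, Farsa, Farsb, Hars, Rars, Tars and Vars as lower, held with each library left out in turn.

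Of the genes whose promoter stretches are printed above, Aars and Yars rose with DON, Iars and Tars fell, and Gars did not pass the test (0.01 ± 0.04). With GM-CSF against none all 5 rose, by 0.81 ± 0.04, 1.07 ± 0.07, 0.56 ± 0.06, 0.85 ± 0.05 and 0.36 ± 0.04 in the same order. Cytosolic genes with a window and no match also went both ways with DON. Of those, Eprs, Mars and Sars rose, Dars, Farsa, Farsb and Kars fell, and Qars did not pass. With GM-CSF 17 of all 20 cytosolic genes rose. The part of the element in these changes was not tested.

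Among mitochondrial genes 6 rose with DON against GM-CSF (Aars2, Fars2, Hars2, Pars2, Vars2 and Wars2), 3 fell (Mars2, Tars2 and Yars2) and 7 did not pass, with a median log2 fold change of 0.05. The number called, 9 of 16, is near the 57.6% called among all genes tested. Tryptophanyl Wars2 had the largest rise of all 36 genes in this comparison. It was at 6.95 and 7.52 CPM with GM-CSF and at 16.8 and 16.8 with DON, 2.33-fold higher (1.22 ± 0.09, adjusted p 2.05e-06 by edgeR's quasi-likelihood test), and at 7.96 and 7.99 without GM-CSF. Fars2 was at 24.2 and 24.9 CPM with DON against 14.4 and 14.8 (0.75 ± 0.07), above its level without GM-CSF. Valyl Vars2 stood at 8.54 and 8.29 CPM with GM-CSF and 12.7 and 11.5 with DON (0.52 ± 0.10). The values of these 3 did not overlap between the groups, which is a description only. Alanyl Aars2 was at 7.16 and 7.05 CPM with GM-CSF and at 9.72 and 9.03 with DON, and at 5.75 and 6.27 without GM-CSF, and its call was lost with DESeq2 (0.38, adjusted p 0.103). Prolyl Pars2, among the less abundant at 3.43 and 3.46 CPM with GM-CSF and 4.62 and 4.85 with DON, lost its call without any 1 of these 4 libraries (adjusted p 0.0698 to 0.118). The call of Hars2 (0.20 ± 0.08, adjusted p 0.0423) was lost under 12 of 14 other settings.

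Tars2 fell from 24.5 and 23.8 CPM with GM-CSF to 16.6 and 15.7 with DON (-0.59 ± 0.07), close to its level without GM-CSF. Yars2 fell from 14.8 and 13.7 to 11.3 and 10.3 CPM (-0.40 ± 0.09), and Mars2 from 8.66 and 8.29 to 5.14 and 6.48 (-0.54 ± 0.14). Both also lay near their levels without GM-CSF, and Mars2 lost its call without DON replicate 1 (adjusted p 0.0507). The 7 uncalled genes were Cars2, Ears2, Iars2, Lars2, Nars2, Rars2 and Sars2, from -0.52 ± 0.28 for Lars2 to 0.13 ± 0.11 for Nars2.

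DON-treated cells were also set directly against cells without GM-CSF, which asks where both agents together left each gene. Of the 20 cytosolic genes 15 rose, 2 fell (Dars and Farsb) and 3 did not pass (Farsa, Hars and Rars), with a median log2 fold change of 0.35, and 5 were at least 2-fold higher. Over all genes tested 27.2% rose and 28.4% fell (55.6% in all), with a median of 0.01. Yars was 2.54-fold higher (1.34 ± 0.07), Aars 2.45-fold (1.29 ± 0.04), Sars 2.40-fold (1.26 ± 0.05), Cars 2.23-fold (1.15 ± 0.07) and Mars 2.19-fold (1.13 ± 0.05). The adjusted p of Aars, 6.25e-09 by edgeR's quasi-likelihood test, was the smallest among the 36. Farsb was at 97.7 and 105 CPM without GM-CSF, 94.1 and 99.3 after stimulation and 80.1 and 76.1 with DON, and thus 1.30-fold lower at the end (-0.38 ± 0.06). The fall of Dars (-0.21 ± 0.06), which had been at 56.1 and 60.8 CPM without GM-CSF, lost its call when no GM-CSF replicate 2 (adjusted p 0.0957) or DON replicate 1 (0.0811) was left out. Farsa gained a call as lower without DON replicate 1 (-0.28, adjusted p 0.0107). Scaled by total counts alone, the cytosolic split was 15 higher and 1 lower.

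Of the 16 mitochondrial genes 6 rose against no GM-CSF (Aars2, Fars2, Iars2, Nars2, Vars2 and Wars2), 0 fell and 10 did not pass, with a median log2 fold change of 0.02. The shares over all genes tested were 27.2% higher and 28.4% lower (55.6% called in all), with a median of 0.01. Called mitochondrial genes, 6 of 16, were thus a smaller share than among all genes. Wars2 was 2.11-fold higher (1.08 ± 0.09), and Nars2 and Aars2 were 1.56-fold higher (0.65 ± 0.11 and 0.64 ± 0.11). Nars2 reached 9.79 and 8.63 CPM and Iars2 102 and 97.2 with DON. The 10 uncalled genes were Cars2, Ears2, Hars2, Lars2, Mars2, Pars2, Rars2, Sars2, Tars2 and Yars2. Lars2 changed sign with the library left out. Its difference was -0.04 ± 0.28 with all libraries, 0.54 (adjusted p 0.032) without no GM-CSF replicate 1 and -0.46 (adjusted p 0.0423) without no GM-CSF replicate 2.

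Summed over the genes, cytosolic synthetases took 1692 ± 32.6 CPM without GM-CSF, 2429 ± 21.6 in stimulated cells and 2564 ± 33.7 in DON-treated cells. Mitochondrial synthetases took 293 ± 30.8, 350 ± 29.6 and 337 ± 1.91 CPM. The ratio of the sums was 5.80 ± 0.72, 6.98 ± 0.65 and 7.62 ± 0.06. Lars2 alone supplied much of that spread, and without it the ratio was 7.54 ± 0.09, 9.58 ± 0.03 and 9.51 ± 0.19. Both GM-CSF groups therefore lay above the group without GM-CSF, and DON and GM-CSF alone overlapped once Lars2 was set aside. With 2 libraries a group, the smallest two-sided p that an exact permutation test allows is 0.333, so no test of these single values was made.

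Matching each cytosolic enzyme with the mitochondrial enzyme for the same amino acid gave 17 pairs, in which the ratio of counts within a library needs no scaling between libraries. With GM-CSF the log2 ratio of cytosolic over mitochondrial counts was higher in 16 of 17 pairs, with a median difference of 0.45. Lars/Lars2 was the exception at -0.05, with an SD of 0.72 within the group without GM-CSF. Between DON and GM-CSF alone it was higher in 8 of 17 pairs, with a median of -0.12. Eprs, Farsa, Farsb and Fars2 each appear in more than 1 place or share a partner, so the pairs are not independent.

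With DON the pairs ran in opposite ways. The serine pair Sars/Sars2 went from 4.24 ± 0.03 with GM-CSF to 5.14 ± 0.17, the methionine pair Mars/Mars2 from 3.12 ± 0.06 to 3.84 ± 0.25 and the tyrosine pair Yars/Yars2 from 2.45 ± 0.15 to 3.12 ± 0.01 (log2 ratios of counts, not per length). In each, both DON libraries lay above both GM-CSF libraries. The phenylalanine pair Farsa/Fars2 went from 1.83 ± 0.05 to 0.51 ± 0.19, the valine pair Vars/Vars2 from 3.96 ± 0.03 to 2.90 ± 0.10 and the histidine pair Hars/Hars2 from 2.52 ± 0.02 to 1.69 ± 0.03. In these the DON libraries lay below. For tryptophan both enzymes rose with DON, Wars2 more than Wars, and the ratio went from 3.37 ± 0.10 to 2.74 ± 0.03.

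**Figure D3:**
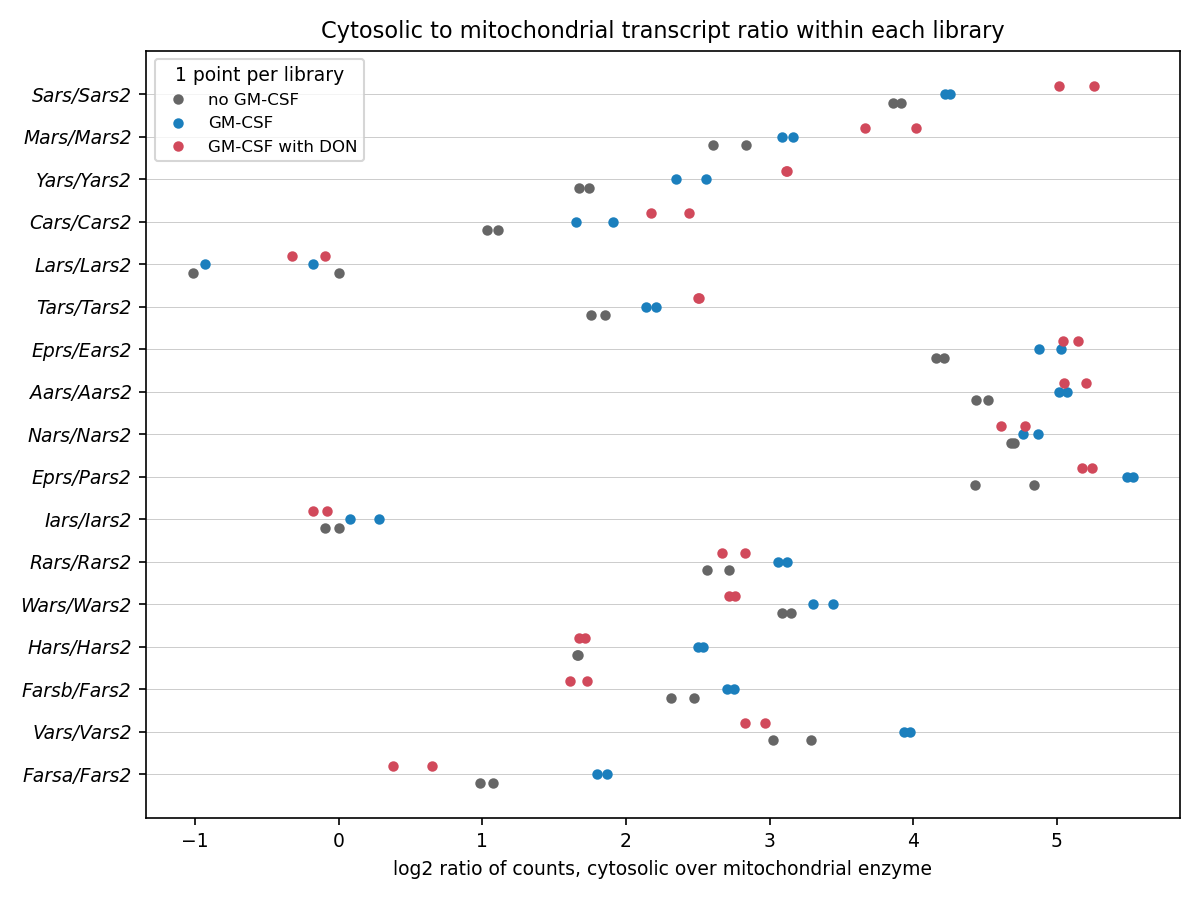
Log2 ratio of cytosolic over mitochondrial counts for 17 pairs of enzymes for the same amino acid, 1 point per library, coloured by group and ordered by the difference between DON and GM-CSF alone. Upper pairs such as Sars/Sars2 move right with DON, lower pairs such as Farsa/Fars2 and Vars/Vars2 move left, and Lars/Lars2 spreads widely within groups.

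Structural class and complex membership were read the same way, beside all genes tested, of which 27.5% rose and 29.3% fell with GM-CSF, and 28.8% rose and 28.8% fell with DON. Of the 9 class I cytosolic enzymes 8 rose with GM-CSF and 0 fell, and with DON 4 rose and 4 fell. Of the 10 class II enzymes 8 rose and 0 fell with GM-CSF, and with DON 2 (Aars and Sars) rose and 6 fell. The fused enzyme Eprs was counted in neither class and rose both with GM-CSF and with DON. Of the 8 enzymes of the multi-synthetase complex 7 rose and 0 fell with GM-CSF, and with DON 2 rose (Eprs and Mars), 5 fell and Qars did not pass. The 12 cytosolic enzymes outside the complex gave 10 and 0 with GM-CSF and 5 and 5 with DON. The complex's scaffolds did not move as 1 unit. Aimp2 rose with GM-CSF (0.59 ± 0.07) and fell with DON (-0.66 ± 0.07), and Eef1e1 did likewise (0.53 ± 0.07 and -0.59 ± 0.07), whereas Aimp1 rose in both (0.20 ± 0.07 and 0.30 ± 0.07).

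Of 14 listed partners of the synthetases, such as scaffolds, editing factors and the enzymes that make glutaminyl, formylmethionyl and selenocysteinyl transfer RNA, 11 were tested. With GM-CSF 4 rose and 1 fell (Dtd1, which removes D-amino acids from transfer RNA, -0.68 ± 0.18). With DON 2 rose and 2 fell. Among all genes tested 27.5% rose and 29.3% fell with GM-CSF, and 28.8% rose and 28.8% fell with DON. In all, 56.8% and 57.6% of genes were called in the 2 comparisons. The number of partners called lay near that share with GM-CSF and below it with DON. Some partners had few counts, such as Dtd1 at a mean of 3.02 CPM with GM-CSF. The part of low counts in the number called was not tested. The genes for mitochondrial ribosomal proteins, the machinery that mitochondrial synthetases supply, numbered 76. With GM-CSF 47 rose and 1 fell (median 0.24), and with DON 10 rose and 35 fell (median -0.14).

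Regulators of the amino acid and stress response were set beside the synthetases. Of 16 genes, 9 rose and 3 fell with GM-CSF, where 27.5% of all genes rose and 29.3% fell. With DON 11 rose and 2 fell, where 28.8% of all genes rose and 28.8% fell. Atf4 was at 198 and 217 CPM without GM-CSF, 303 and 320 after stimulation and 588 and 537 with DON, so that it rose in each step (0.59 ± 0.06 and 0.85 ± 0.06). Ddit3, which encodes the stress factor CHOP, did not pass the test with GM-CSF (0.00 ± 0.09) and rose with DON (2.59 ± 0.08). Trib3, a target of both factors that restrains ATF4, rose in each step (2.15 ± 0.11 and 2.34 ± 0.08), as did Atf5 (1.502 ± 0.07 and 0.97 ± 0.06). Eif2ak4 encodes GCN2, the kinase that senses uncharged transfer RNA. Its message passed the test in no comparison, at 29.9 and 28.8, 31.3 and 31.9, and 29.3 and 29.1 CPM. Myc, a known activator of growth genes, was at 62.8 and 68.2, 74.5 and 69.5, and 49.3 and 47.4 CPM, uncalled with GM-CSF (0.14 ± 0.06) and lower with DON (-0.58 ± 0.06).

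Other known targets of the amino acid response mostly rose with GM-CSF and went both ways with DON. Of 19 tested, 16 rose and 0 fell with GM-CSF, with a median of 1.21. With DON 5 rose and 7 fell, with a median of -0.09. Among all genes tested 27.5% rose and 29.3% fell with GM-CSF, and 28.8% rose and 28.8% fell with DON. The DON counts of these targets thus lay near the share of all genes. The 5 that rose with DON included the amino acid transporter subunit Slc3a2 (1.35 ± 0.04), the folate enzyme Mthfd2 (0.90 ± 0.08) and Chac1 (2.58 ± 0.12), which degrades glutathione. Asparagine synthetase Asns was at 98.6 and 107 CPM with GM-CSF and at 101 and 97.5 with DON and did not pass the test (-0.05 ± 0.07), while Psat1 of the serine pathway fell (-0.88 ± 0.05). Against no GM-CSF, 18 of the 19 were higher in DON-treated cells and 0 were lower, where 27.2% of all genes rose and 28.4% fell. Beside the rise of Wars, 4 of 11 tested interferon-induced genes rose with DON and 0 fell, where 28.8% of all genes rose, led by the guanylate-binding protein gene Gbp2 (2.10 ± 0.07) and the transcription factor gene Irf1 (0.75 ± 0.05). With GM-CSF 5 of these 11 fell and 1 rose. The part of interferon signalling in the Wars values was not tested.

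**Figure D4:**
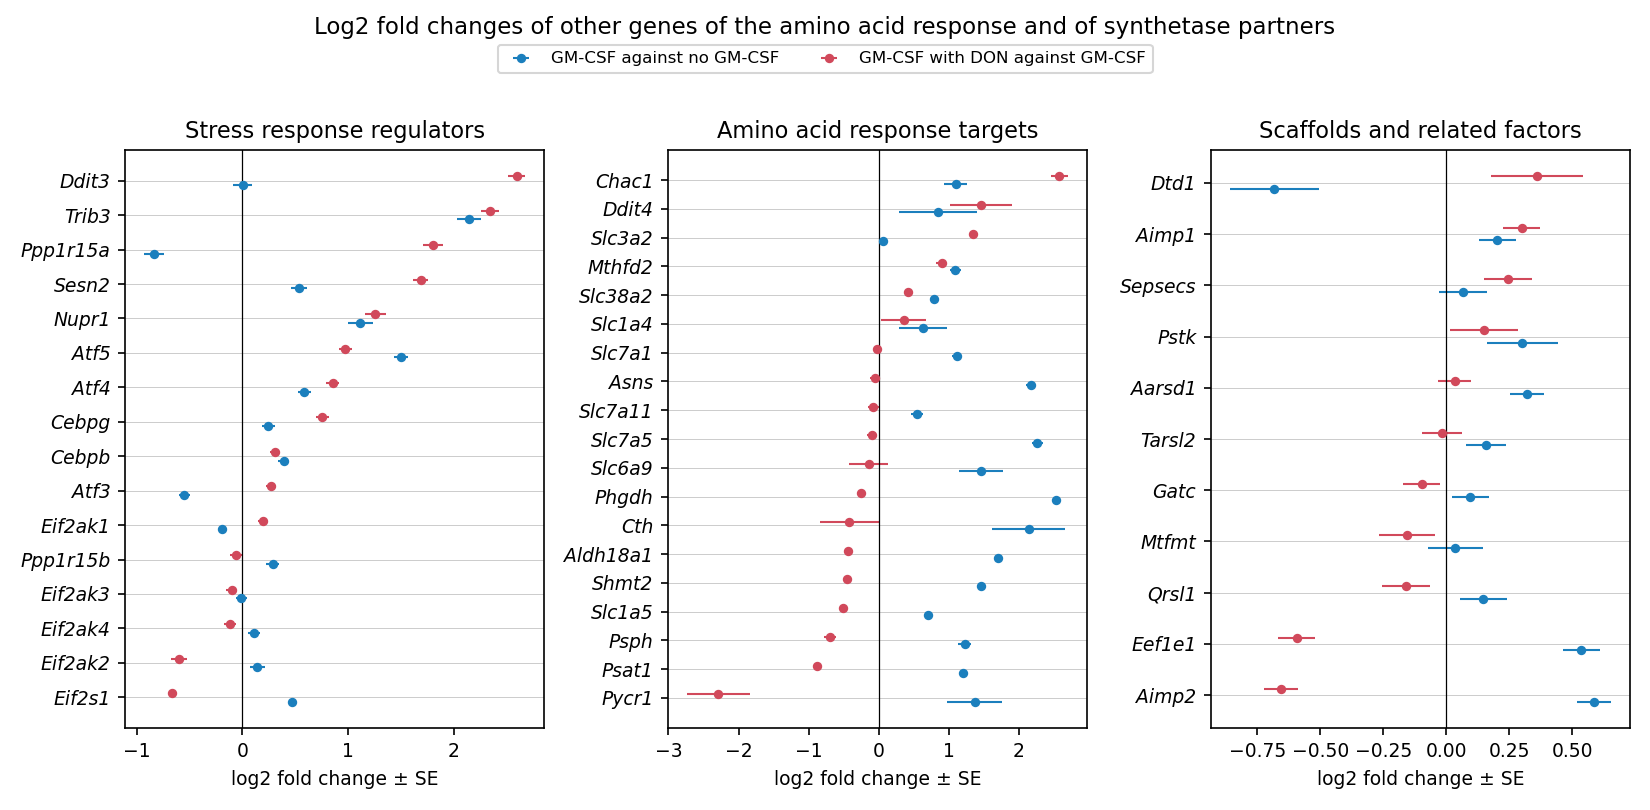
Log2 fold changes with SE (horizontal bars) of stress regulators, amino acid response targets and synthetase partners, blue for GM-CSF against none and red for DON against GM-CSF. Atf4, Trib3 and Atf5 lie right of 0 in both colours, Asns and Phgdh are far right in blue only, and Aimp2 and Eef1e1 lie on opposite sides.

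Some synthetase genes share exon bases with a neighbour, and the strand setting of the counting is not given in the sources used here, so such reads could have been assigned to either gene or dropped. By GENCODE vM21 exons, Mars shares 68 bases with Ddit3 on the opposite strand, Hars and Hars2 share 195, Iars2 shares 2034 with Rab3gap2 and Fars2 shares 115 with Lyrm4 and 501 with Nrn1. Rab3gap2 fell with GM-CSF (-0.23 ± 0.05) and rose with DON (0.46 ± 0.05). Lyrm4, like Fars2, fell with GM-CSF (-0.30 ± 0.06) and rose with DON (0.44 ± 0.06). The part of shared reads in the Mars, Iars2 and Fars2 values was not tested.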

How the data were processed

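RNA-seq libraries from 6 samples were grouped by their titles and treatment labels. The authors deposited a table of whole-number counts per gene and a table of FPKM values for the same genes, and no column was left unused. The submitters' processing notes name mm10 as the build and featureCounts, DESeq2 1.28.1, Subread 1.4.6 and STAR 2.6.0a as tools, with no roles; annotation, strand setting and gene filter were not given in the sources used here. Counts were filtered with filterByExpr (minimum count 10) and scaled with TMM factors. All 6 libraries were fitted in 1 edgeR 4.0.16 quasi-likelihood model (R 4.3.3), tested on simulated data first, with Benjamini-Hochberg adjustment over 12340 genes and calls at 0.05. Fold changes are log2 values computed here from the deposited counts, and SE is the fold change over the square root of F. The median SE over all genes was 0.08. The chi-square between replicates was 3.90 to 7.04 per degree of freedom, so no library was a copy.

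The members and lists were chosen with earlier results of these data known. Values in every library are given for the 6 cytosolic and 4 mitochondrial genes with the smallest adjusted p in a comparison and for genes called against the majority of their compartment. Of other lists, up to 4 genes with the smallest adjusted p were eligible to be named, with Atf4, Ddit3, Asns, Trib3, Chac1, Eif2ak4 and Myc always given. Rab3gap2, Lyrm4, Car4, Cdh1 and Lyz2 were named after their values were seen. Symbols of all 36 genes matched RefSeq (Mars as Mars1). Alternatives were other scaling, no filter, DESeq2 1.42.0, limma 3.58.1 on log2(FPKM + 1) with pseudocount 1, only the groups compared, replicate blocks, each library left out, and stricter promoter letters. From the lists of partners and cell markers, 2 genes are not reported here and were left out of the counts.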

Additional observations from a re-analysis of the deposited data

How the results depend on the processing

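Scaled by total counts, the GM-CSF medians were 0.65 (cytosolic) and 0.28 (mitochondrial), with 8 mitochondrial genes higher and 1 lower, and against no GM-CSF the DON medians were 0.45 and 0.12 with 1 cytosolic gene lower. This scaling moved the median of all genes by 0.12 with GM-CSF. With limma on FPKM the cytosolic medians were 0.50 (GM-CSF) and -0.12 (DON against GM-CSF). DESeq2 called 1 mitochondrial gene lower with GM-CSF and 3 higher with DON; the cause was not tested. Leaving out 1 library at a time, the mitochondrial median ran from 0.093 to 0.20 with GM-CSF, with 1 to 2 genes lower, and from 0.017 to 0.13 for DON against no GM-CSF, with 0 to 1 genes lower (Lars2); cytosolic genes lower there numbered 1 to 2 (Dars lost). The fitted model then has fewer libraries, and the lone library of a group is assumed to vary like the others. Lars2 with DON against no GM-CSF, -0.04 with all libraries, ran from -0.46 to 0.54 (the latter without no GM-CSF replicate 1). All other medians and counts of called genes kept within 1.5 times or the replicate spread under every setting run.

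Differences between replicates 2 and 1 correlated across 8164 genes at -0.05 (no GM-CSF and GM-CSF) and 0.07 (GM-CSF and DON). For no GM-CSF and DON the correlation was -0.31. These values do not settle whether the samples were paired. With a replicate block 24, 23 and 23 of the 36 genes were called in the 3 comparisons, against 24, 26 and 23 without it, and DON against GM-CSF lost Hars2, Kars and Lars. A crossed block, added after seeing the data, called 24, 27 and 24. Depth was 28321986 counts or more per library, and low mitochondrial genes had larger errors (SE 0.16 for Pars2 with GM-CSF) than abundant ones (0.04 for Gars).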
